A study of Mus musculus with 4 samples.

Results

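The SLC25 family of mitochondrial carriers and the uncoupling proteins were followed in mouse liver as 47 genes, taken from the 22849 gene symbols of the deposited table. A gene was a member where its symbol alone named a row and began with Slc25a plus a number, or was Ucp1, Ucp2 or Ucp3. Each of the 47 members had 1 row. Livers were taken from males of the inbred strain C57BL/6 after 12 weeks on food with 60% fat. Both groups ate this diet and there was no group on a lean diet. The vehicle group (2 libraries) had the diet alone, and the UAB126 group (2 libraries) had it with UAB126, a compound known here only by that code, at 1.2 g per kg of diet. No age is given for the mice. The titles number the libraries 1 and 2 in each group, and no label states that each is another animal, so p-values measure only the spread between these libraries, which may be technical.

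Mitochondrial carriers are small proteins of the inner membrane that exchange metabolites, nucleotides, cofactors and ions between the cytosol and the matrix. In hepatocytes they supply ADP and phosphate for ATP synthesis, bring in acylcarnitines for fat oxidation, export citrate for lipid synthesis and link the matrix and cytosolic steps of the urea cycle. The uncoupling proteins belong to the same family; Ucp1, the best known, lets protons leak across the membrane in brown fat and so makes heat.

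Levels are FPKM, that is, fragments per length of transcript and per size of library, so that levels of different genes can be set side by side. Of the 47 members, 36 averaged 1 FPKM or more over the 4 libraries and were tested. A further 8 were lower but above 0 in at least 1 library, and 3 were listed at 0 in every library. The hepatocyte markers that have a row of their own (10 of the 12 looked for) summed to 61826 and 118973 FPKM in vehicle and to 34299 and 49828 FPKM with UAB126. Albumin (Alb), at 32243 FPKM in vehicle library 2, is listed at 0 in the others. By the steps between low values, the relative depth was 0.691 in vehicle library 1, 0.404 in vehicle library 2 and 0.703 in UAB126 library 2, with UAB126 library 1 as 1, so low values of vehicle library 2 are the least precise. Genes of heart muscle, chosen after the values were seen, were present in all libraries and most of all in vehicle library 2, and their values stand below beside the members that moved with them. For 12 members, 9 of them tested, the deposited locus also holds rows of other symbols, and Cufflinks may have divided fragments between neighbours there.

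For 3 members whose difference between groups is described below, the start of the gene is shown so that the reader can see what lies in front of it. These are the ones among the 5 members with an unadjusted p under 0.05 for which RefSeq's table (GRCm38.p6, the mm10 assembly) gave a promoter window lying before the annotated start in GENCODE M21. The letters run 5′ to 3′ on the plus strand and stop just before the gene start: Ucp2 at chr7:100493108-100493336, Slc25a45 at chr19:5877572-5877807 and Slc25a10 at chr11:120491587-120491836. Capitals mark GGGCGG, the GC box that binds Sp1, and AGGTCA, the half-site of nuclear receptors, on either strand.
Ucp2: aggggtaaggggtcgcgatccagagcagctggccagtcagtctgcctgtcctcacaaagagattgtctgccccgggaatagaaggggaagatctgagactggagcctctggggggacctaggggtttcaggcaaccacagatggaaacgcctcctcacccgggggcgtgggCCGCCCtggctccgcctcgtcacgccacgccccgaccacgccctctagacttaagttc
Slc25a45: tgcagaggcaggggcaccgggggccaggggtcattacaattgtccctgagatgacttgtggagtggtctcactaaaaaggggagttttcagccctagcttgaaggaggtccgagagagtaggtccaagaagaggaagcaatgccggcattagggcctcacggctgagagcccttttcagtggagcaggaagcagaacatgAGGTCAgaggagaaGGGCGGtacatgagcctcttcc
Slc25a10: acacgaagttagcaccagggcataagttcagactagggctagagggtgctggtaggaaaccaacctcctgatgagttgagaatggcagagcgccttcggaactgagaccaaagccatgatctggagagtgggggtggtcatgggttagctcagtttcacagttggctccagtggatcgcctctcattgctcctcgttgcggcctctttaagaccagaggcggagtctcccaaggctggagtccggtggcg

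Ucp2 holds 1 GC box in the printed stretch, Slc25a45 holds 1 GC box and 1 half-site, and Slc25a10 holds neither. A window was given for 36 members, which are not the 36 tested ones, since untested members such as Slc25a31 and Ucp1 are among them. Over the whole window (250 bases before to 50 after the RefSeq start), 28 of these 36 carried GGGCGG on either strand (77.8%), against 68.8% of the tested genes with a window and 38.2% of all 27025 symbols. AGGTCA was in 6 of 36 (16.7%) against 15.8% and 18.1%, in the same order. The CCAAT box was in 16 of 36 (44.4%) against 42.6% and 41.1%, the E-box CACGTG in 6 of 36 (16.7%) against 12.3% and 8.09%, and the CRE TGACGTCA in 2 of 36, Slc25a25 and Slc25a36, against 3.67% and 2.03%. The tandem repeat of that half-site with a single base between (the PPAR element), TGATGNAA (the amino acid response element) and the palindromic NRF1 motif were in 0 of the 36 windows. They were in 0.013%, 2.73% and 2.5% of the tested genes with a window and in 0.0481%, 4.51% and 1.07% of all symbols. A match is a match of letters and says nothing of binding. These motifs may overlap one another.

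The 47 members spanned several orders of magnitude in liver, and few of them carried most of their summed level. Joint values that hold Slc25a23, Slc25a1 and Slc25a22 averaged 335, 212 and 161 FPKM and are not in this sum. The part of the carriers in those joint values is unknown. The summed level of all 47 members was 2643 and 2730 FPKM in the vehicle libraries against 2161 and 2760 FPKM under UAB126. Slc25a5, the adenine nucleotide translocase that exchanges ATP for ADP, was the most abundant by mean, at 529 and 574 FPKM in the vehicle libraries against 493 and 602 FPKM under UAB126. Slc25a47, a carrier found mainly in liver, came next, followed by Slc25a39, which serves glutathione import. These 3 genes held 54.1% to 57.4% of the summed level in each of the 4 libraries. Slc25a5 had a share of 20%, 21.0%, 22.8% and 21.8%, in the order vehicle 1, vehicle 2, UAB126 1 and UAB126 2.

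Of the tested members, 7 had a mean over 100 FPKM, 16 lay between 10 and 100 FPKM, and 13 were under 10 FPKM. Slc25a3, the phosphate carrier that feeds ATP synthase, was at 184 and 211 FPKM in the vehicle libraries against 197 and 218 FPKM under UAB126. The groups overlapped for this gene, as they did for Slc25a5. The most abundant members with known substrates are thus those of ATP synthesis and glutathione, followed by Slc25a13 (aspartate and glutamate), Slc25a20 (acylcarnitine), Slc25a42 (coenzyme A) and Slc25a15 (ornithine).

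**Figure D1:**
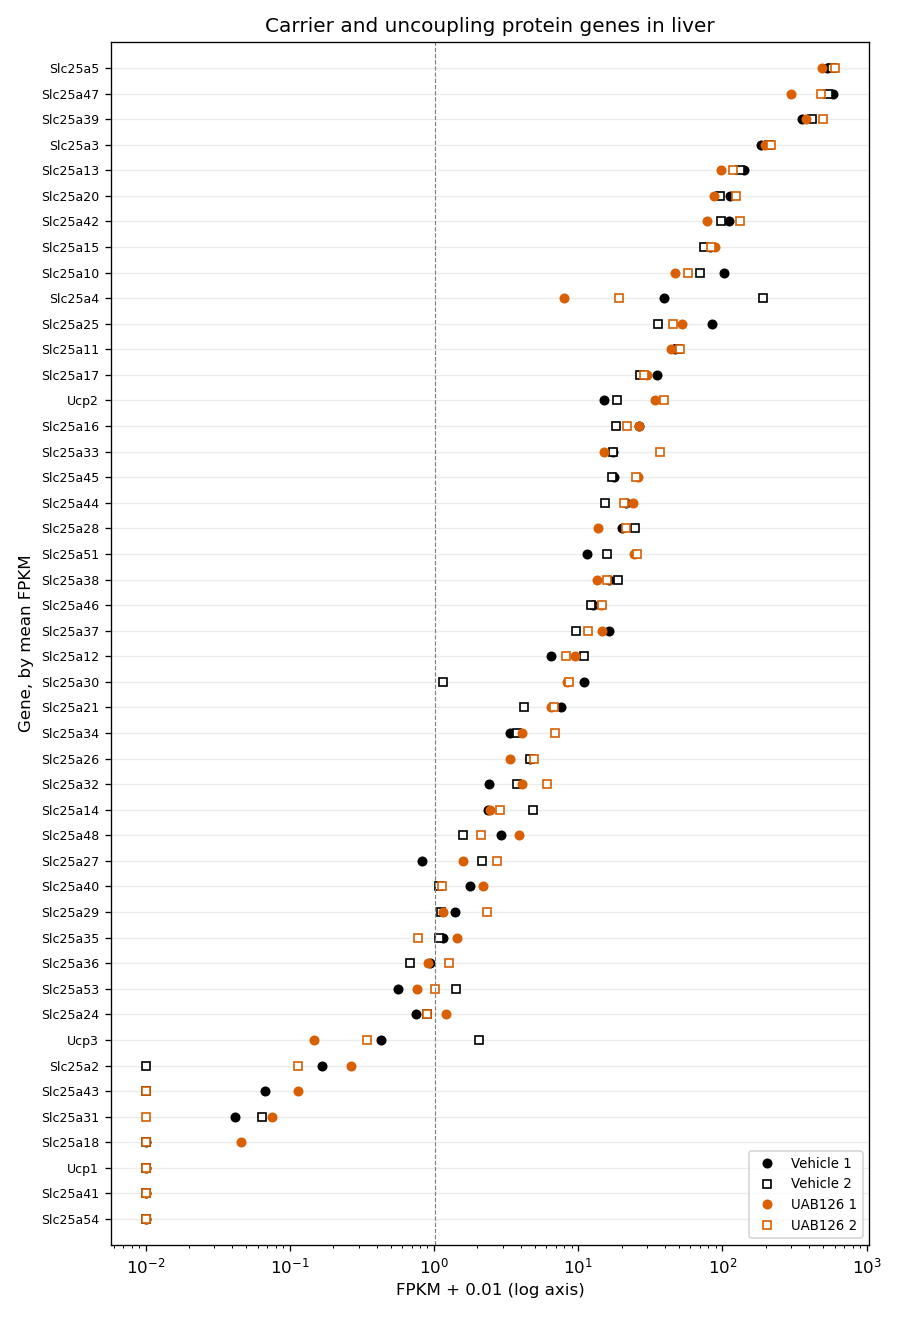
FPKM in each library of the 47 genes, 1 left out (x axis, FPKM + 0.01 on a log axis; y axis, genes ordered by mean). Circles are replicate 1 and squares replicate 2, black for vehicle and orange for UAB126; the dashed line marks a level of 1 FPKM. Most genes keep their 4 points close together, while some, such as Slc25a4, Ucp3 and Slc25a30, are spread. The genes listed at 0 sit at the left edge.

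With UAB126 0 of the 36 tested members passed the threshold (limma, Benjamini-Hochberg adjusted p under 0.05 over all tested genes), where 0.139% of the 10786 tested genes did (0.0464% higher and 0.0927% lower with UAB126). The lowest adjusted p of a member was 0.201. At an unadjusted p under 0.05 (limma), 3 of 36 members (8.33%) were higher (Ucp2, Slc25a51 and Slc25a45), against 5.03% of all tested genes. Lower at that p were 2 of 36 (5.56%), Slc25a4 and Slc25a10, against 8.38%. Both UAB126 libraries lay above both vehicle libraries in 7 of 36 members (19.4%), against 22.7% of all tested genes, and below both in 6 of 36 (16.7%), against 26.9%. The shares without overlap are near or under those of all genes. None of these counts, by p or by overlap, is a result about the family. The median log2 difference of UAB126 from vehicle, on the log2(FPKM + 1) scale, was 0.07 over the 36 members and -0.03 over all tested genes. The median size of the difference, regardless of sign, was 0.25 for members and 0.27 for all.

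The precision of single genes was limited. The median half-width of the members' 95% intervals was 0.67 on the log2 scale, and for 22 of 36 members the whole interval lay between a doubling and a halving of FPKM + 1. An exact permutation of 2 against 2 libraries cannot go below p = 0.333. In each paragraph below, ± gives limma's moderated SE (n = 2 per group), and differences are UAB126 minus vehicle on the log2(FPKM + 1) scale, which understates those of low genes.

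**Figure D2:**
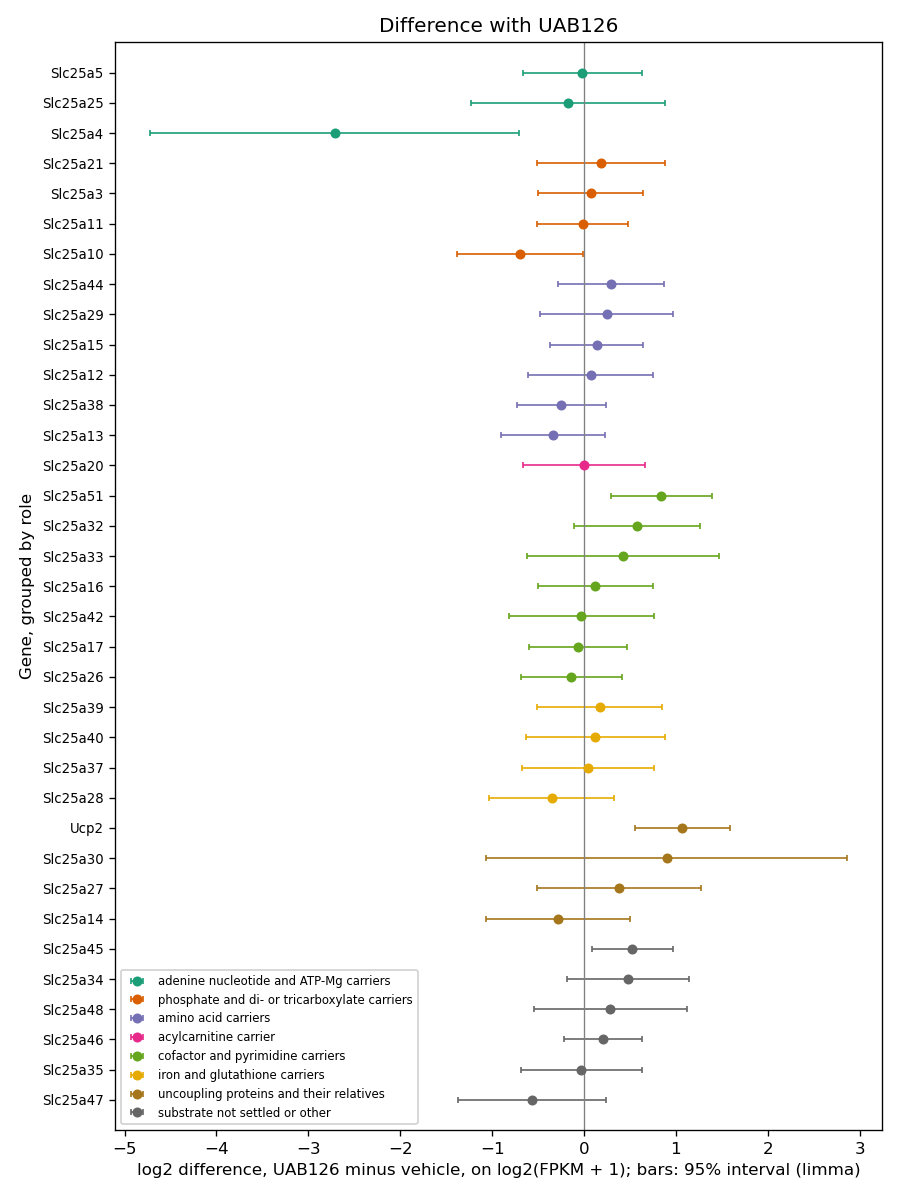
Difference of UAB126 from vehicle for the 36 tested genes, 1 left out (x axis, log2 difference on log2(FPKM + 1); bars, limma's 95% interval; y axis and colours, genes by role). The intervals of 31 of the 36 tested genes include 0; Ucp2, Slc25a51 and Slc25a45 lie to the right of 0 and Slc25a4 and Slc25a10 to the left, before adjustment for the number of genes tested.

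Among the uncoupling proteins, Ucp2 had the smallest p of any member. It encodes a carrier of many tissues whose transport activity is still debated, is abundant in macrophages, and is a known target of PPAR-alpha in hepatocytes. Ucp2 (chromosome 7, 100493337 to 100502020 of mm10) was at 15.2 and 18.6 FPKM in the vehicle libraries against 33.8 and 39.2 FPKM under UAB126, a ratio of means of 2.16. Both UAB126 libraries lay above both vehicle libraries, and the difference was 1.07 ± 0.20 (limma adjusted p = 0.201), so it did not pass. Macrophage and Kupffer cell markers, of which 10 of 12 had a row, summed to 131 and 390 FPKM in the vehicle libraries against 282 and 359 FPKM under UAB126. Of the 10, 3 were higher in both UAB126 libraries, as Ucp2 was, against 22.7% of all tested genes. These were Cd68 (6.10 and 13.7 against 14.4 and 14.9 FPKM), Csf1r (4.19 and 9.59 against 13.2 and 10.8 FPKM) and Cd5l (16.5 and 44.2 against 49.0 and 46.7 FPKM). The other markers overlapped between groups, C1qb among them (28.0 and 93.85 against 48.4 and 70.1 FPKM), and the count is no result about these cells. None of the 10 was at 0 in all libraries and none passed, and the part of macrophage RNA in the Ucp2 values was not tested. In bulk tissue, fewer cells of a type and less RNA per cell cannot be told apart.

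Ucp1, the brown fat protein, is listed at 0 in all 4 libraries. Of 7 brown adipocyte markers, Zic1 is also listed at 0 in all, while Dio2 and Prdm16 were under 0.3 FPKM in each library. Adrb3, from the same list, was at 6.69 and 5.24 FPKM in the vehicle libraries against 4.42 and 5.84 FPKM under UAB126. The 7 together summed to between 133 and 176 FPKM, nearly all from Elovl3, a fatty acid elongase that liver also makes, and Cox7a1, a cytochrome oxidase subunit that heart muscle makes as well. Ucp3, a gene of skeletal muscle and heart, was at 0.418 and 2.06 FPKM in the vehicle libraries against 0.137 and 0.335 FPKM under UAB126, under the level for testing. Vehicle library 2 alone exceeded 1 FPKM. Ucp3 and Ucp2 are neighbours on the same strand, 6904 bases apart, with no coding gene annotated between them, and the mean level of Ucp2 was 36.2 times that of Ucp3.

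The relatives of the uncoupling proteins were low. Slc25a30 was at 11 and 1.14 FPKM in the vehicle libraries against 8.34 and 8.61 FPKM under UAB126, so that vehicle library 2 stood apart from the other 3 by a factor of 9.64 from its own replicate. Its difference was 0.90 ± 0.78 (limma adjusted p = 0.598), 2.14 without vehicle library 1 and -0.34 without vehicle library 2. Slc25a30 was singled out after its values were seen. Slc25a27 and Slc25a14, known from brain as UCP4 and UCP5, had means under 10 FPKM and groups that overlapped.

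**Figure D3:**
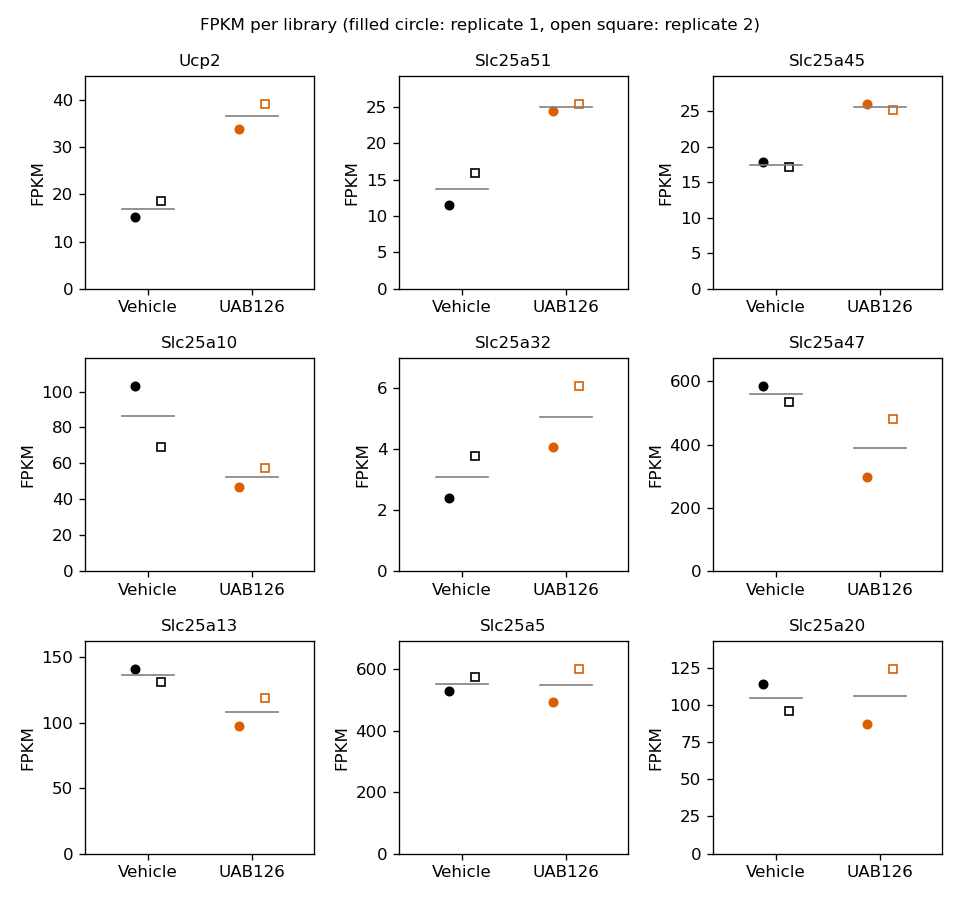
FPKM of 9 genes per library (y axis from 0; x axis, group; filled circles, replicate 1; open squares, replicate 2; grey lines, group means). The groups do not overlap for Ucp2, Slc25a51, Slc25a45, Slc25a10, Slc25a32, Slc25a47 and Slc25a13, and overlap for Slc25a5 (493 to 602 FPKM) and Slc25a20 (87.4 to 124 FPKM).

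Of the 6 adenine nucleotide and ATP-Mg carriers, 3 were tested, and Slc25a4 had the largest difference of any tested member. Slc25a4 encodes the translocase of heart and skeletal muscle, the counterpart of Slc25a5. Slc25a4 (chromosome 8, 46206797 to 46211284) was at 39.3 and 191 FPKM in the vehicle libraries against 7.96 and 19.1 FPKM under UAB126, a difference of -2.71 ± 0.80 (limma adjusted p = 0.293). The groups did not overlap, but the vehicle libraries differed from each other by a factor of 4.87 and the UAB126 libraries by 2.40. Without vehicle library 1 the difference was -3.84, and without vehicle library 2 it was -1.59. Each of these fits rests on a single vehicle library, so no p is given for them.

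Heart muscle genes moved with Slc25a4. Of 13 such genes looked for, 11 had a row. Their summed level was 538 and 2953 FPKM in the vehicle libraries against 23.7 and 160 FPKM under UAB126. All 11 were lower in both UAB126 libraries, where 26.9% of all tested genes were. The list was chosen after the values were seen, so this count is no test. Of the 11, 10 had the same order of the 4 libraries as Slc25a4 and Ucp3: vehicle 2, vehicle 1, UAB126 2, UAB126 1. So had 4 of the 10 hepatocyte markers and 3 of the 6 skeletal muscle markers with a row. The share of all tested genes with this order was not computed. Cardiac troponin I (Tnni3) was at 59.0 and 350.3 against 2.80 and 19.1 FPKM, and the ventricular light chain gene Myl2 at 153 and 842 against 5.50 and 46.3 FPKM. Vehicle library 2 exceeded vehicle library 1 by a factor of 4.87 for Slc25a4, 4.92 for Ucp3 and between 4.28 and 8.55 for the 11 heart genes, against 1.08 for Slc25a5. Set against UAB126 library 1 alone, the vehicle factors were smaller for Slc25a4 and Ucp3 than for the heart genes. Vehicle library 1 exceeded UAB126 library 1 by a factor of 4.94 for Slc25a4 and 3.05 for Ucp3, and by 5.73 to 37.2 for the heart genes. Vehicle library 2 exceeded UAB126 library 1 by 24.1 for Slc25a4 and 15.0 for Ucp3, and by 30.9 to 209 for the heart genes. No heart gene was at 0 in all libraries; Nppa, the atrial peptide gene, is listed at 0 in UAB126 library 2. The part of heart muscle RNA in the Slc25a4 and Ucp3 values was not tested. Skeletal muscle markers summed to 15.1 and 78.6 FPKM in the vehicle libraries against 2.37 and 4.74 FPKM under UAB126 over 6 genes. Ckm gave most of the vehicle sums, at 11.1 and 56.6 FPKM. Of the 6, only Ckm, Acta1 and Tnnt3 were lower in both UAB126 libraries, and Myh4, Mylpf and Atp2a1 overlapped between groups. The part of heart muscle RNA in these sums was not tested.

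**Figure D4:**
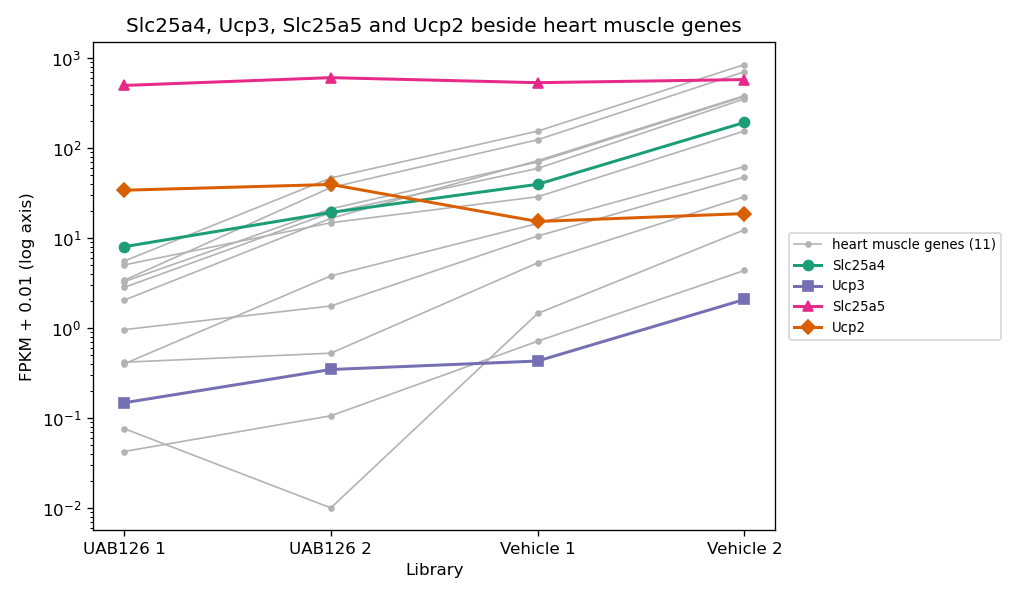
FPKM + 0.01 (log axis) of Slc25a4, Ucp3, Slc25a5, Ucp2 and 11 heart muscle genes (grey) in the 4 libraries, set on the x axis in order of their summed heart gene level. Slc25a4 goes from 7.96 to 191 FPKM along with the grey lines, while Slc25a5 stays between 493 and 602 FPKM.

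Slc25a4 and Slc25a5 are close paralogs and their split of shared reads may be uncertain. Slc25a4 made up 6.92% and 25.0% of their sum in vehicle and 1.59% and 3.08% with UAB126. Slc25a5 (chromosome X, 36795651 to 36798807) had a difference of -0.02 ± 0.26, with a 95% interval of -0.66 to 0.63, and this turned to 0.46 with quantile normalization and to 0.32 with the trend by transcript length removed. Slc25a25, a calcium-regulated ATP-Mg carrier, was at 84.7 and 35.9 FPKM in the vehicle libraries against 52.1 and 45.7 FPKM under UAB126, and the groups overlapped. Slc25a31, the translocase of the testis, was at or under 0.0653 FPKM in every library, and Slc25a41 is listed at 0 in all. Slc25a24 lay under the level for testing, between 0.746 and 1.20 FPKM.

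Of the 4 phosphate and carboxylate carriers, all tested, Slc25a10 was lower with UAB126 in both libraries. Slc25a10, the dicarboxylate carrier that exchanges malate and succinate for phosphate (chromosome 11, 120491840 to 120499187), was at 103 and 69.3 FPKM in the vehicle libraries against 47.0 and 57.3 FPKM under UAB126. The difference was -0.69 ± 0.27 (limma adjusted p = 0.370). Slc25a10 is among the members whose locus holds rows of other symbols. Slc25a11, which carries oxoglutarate for the malate-aspartate shuttle, was at 47.0 and 49.0 FPKM against 44.3 and 51.1 FPKM, with an interval of -0.51 to 0.48. Slc25a3 differed by 0.07 ± 0.23. Slc25a21, which carries oxoadipate and oxoglutarate, was at 7.59 and 4.21 against 6.44 and 6.80 FPKM, and the groups overlapped.

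The amino acid carriers had 8 members, of which 6 were tested. Of the 6, 1 was higher and 2 were lower with no overlap between groups, where 22.7% and 26.9% of all tested genes did so, and these counts are no result about the group. Slc25a13, or citrin, exports aspartate for the urea cycle and the malate-aspartate shuttle in liver. Slc25a13 was at 142 and 131 FPKM in the vehicle libraries against 97.5 and 119 FPKM under UAB126, a difference of -0.34 ± 0.22 (limma adjusted p = 0.506). Its paralog Slc25a12, the form of muscle and brain, was at 6.43 and 10.9 against 9.53 and 8.28 FPKM and overlapped between groups. Slc25a12 made up 4.34% and 7.67% of the pair in vehicle and 8.90% and 6.51% with UAB126, so the ranges of its share overlapped as well.

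Slc25a15, which brings ornithine into the matrix for the urea cycle, was at 82.2 and 74.3 FPKM in the vehicle libraries against 88.7 and 83.8 FPKM under UAB126. The groups did not overlap, with a difference of 0.14 ± 0.20 (limma adjusted p = 0.765). Its paralog Slc25a2 was at 0.157 FPKM and listed at 0 in the vehicle libraries, against 0.254 and 0.103 FPKM under UAB126, no more than 0.286% of the pair in any library. Slc25a38, a glycine carrier needed for heme synthesis in red cell precursors, was at 16.3 and 18.9 against 13.5 and 15.8 FPKM, and 4 of 8 erythroid markers with a row summed to 164 and 189 against 60.0 and 71.1 FPKM, nearly all from Alas2; the part of this in Slc25a38 was not tested. Slc25a44, a carrier of branched-chain amino acids, and Slc25a29, of basic amino acids, overlapped between groups.

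Slc25a20, the carnitine and acylcarnitine carrier that brings fatty acids in for oxidation and a known PPAR-alpha target, was at 114 and 95.5 FPKM in the vehicle libraries against 87.4 and 124 FPKM under UAB126. The UAB126 libraries lay on either side of the vehicle libraries, and the interval of the difference ran from -0.66 to 0.67.

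Among the 9 cofactor and pyrimidine carriers, 8 were tested, and Slc25a51 had the second smallest p of the family. Slc25a51 carries NAD+ into mitochondria. Slc25a51 (chromosome 4, 45395923 to 45408766) was at 11.5 and 15.8 FPKM in the vehicle libraries against 24.5 and 25.4 FPKM under UAB126, a ratio of means of 1.83. The groups did not overlap, with a difference of 0.84 ± 0.22 (limma adjusted p = 0.270). Slc25a32, a carrier of folate and FAD, was at 2.38 and 3.75 against 4.06 and 6.05 FPKM. Its groups did not overlap, and it did not pass (limma adjusted p = 0.416).

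The pyrimidine nucleotide carrier Slc25a33 was at 17.4 and 17.3 FPKM in the vehicle libraries against 15.1 and 36.9 FPKM under UAB126, so that UAB126 library 2 alone was high. Its paralog Slc25a36 was at 0.934 and 0.671 against 0.898 and 1.25 FPKM, under the level for testing, and Slc25a33 made up 94.4% to 96.7% of the pair in each library. Slc25a42, the coenzyme A carrier, was at 111 and 97.2 against 77.7 and 133 FPKM, with both vehicle libraries between the UAB126 libraries. Slc25a16, Slc25a17 and Slc25a26 overlapped between groups too.

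All 4 iron and glutathione carriers overlapped between groups. Of all tested genes, 22.7% were higher and 26.9% lower in both UAB126 libraries, and this count is no result about the 4. The mitoferrins Slc25a37 and Slc25a28 import iron, the first mainly in red cell precursors. Slc25a28 was at 19.99 and 24.8 FPKM in the vehicle libraries against 13.8 and 21.5 FPKM under UAB126, and Slc25a37 at 16.4 and 9.70 against 14.6 and 11.7 FPKM. Slc25a28 made up 55.0% and 71.9% of the pair in vehicle and 48.6% and 64.9% with UAB126. Slc25a39, the glutathione carrier, was at 357 and 417 against 378 and 499.7 FPKM, and its paralog Slc25a40 at 1.76 and 1.07 against 2.18 and 1.13 FPKM. Slc25a39 held 99.4% to 99.8% of that pair.

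The last 9 members have substrates that are not settled, or other roles, and 6 were tested. Slc25a47 (chromosome 12, 108836046 to 108856815 in GENCODE, and from 108851128 in the deposited table) was at 585 and 536 FPKM in the vehicle libraries against 297 and 483 FPKM under UAB126, a difference of -0.56 ± 0.32 (limma adjusted p = 0.460). Hepatocyte markers differed in both directions. Ttr, Apoa1, Asgr1, Asgr2 and F2, 5 of the 10 with a row, were lower in both UAB126 libraries, as Slc25a47 and Slc25a13 were. Another 2, Hnf4a and Tat, were higher. Of all tested genes, 26.9% were lower and 22.7% were higher in both UAB126 libraries. Asgr1 was at 591 and 750.4 against 331 and 446 FPKM and Hnf4a at 123.02 and 121 against 161 and 177 FPKM. None of the 10 hepatocyte markers passed, and their part in the values of Slc25a47 and Slc25a13 was not tested. The share of Slc25a47 in the summed level of all members was 22.1% and 19.7% in vehicle and 13.7% and 17.5% with UAB126. Slc25a45 (chromosome 19, 5877808 to 5885878) was at 17.8 and 17.2 FPKM in the vehicle libraries against 26.1 and 25.1 FPKM under UAB126. The replicates of Slc25a45 lay close together and the groups apart, with a difference of 0.52 ± 0.18 (limma adjusted p = 0.322).

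Slc25a34 was at 3.34 and 3.73 against 4.06 and 6.87 FPKM, and Slc25a46, a protein of the outer membrane involved in mitochondrial shape, at 12.6 and 12.2 against 14.4 and 14.7 FPKM. The groups did not overlap for either, and neither passed (limma adjusted p = 0.451 for Slc25a34 and 0.576 for Slc25a46). Slc25a35 and Slc25a48 overlapped. Slc25a43, Slc25a53 and Slc25a54 were under the level for testing, and Slc25a54 is listed at 0 in all libraries. Slc25a18, a glutamate carrier, was above 0 in UAB126 library 1 alone, at 0.0356 FPKM.

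Members that lie next to each other in the genome had very different levels. Slc25a29 and Slc25a47 are divergent neighbours on chromosome 12 with 162 bases between the GENCODE genes, and the mean of Slc25a47 was 318 times that of Slc25a29. The deposited loci, to which these levels belong, lie further apart: that of Slc25a29 ends at 108835876 and that of Slc25a47 starts at 108851128. Slc25a43 and Slc25a5 lie 18448 bases apart on the same strand of chromosome X with no coding gene between them, at means of 0.0404 and 550 FPKM. Slc25a54 and Slc25a24 are adjacent on chromosome 3, the first listed at 0 and the second at a mean of 0.929 FPKM. These are descriptions of level over the 4 libraries.

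Differences also varied with transcript length. Over the 36 tested members the Spearman correlation of the difference with the length of the longest transcript was 0.33, and over the 9749 tested genes with a length it was also 0.33. Genes are not independent replicates and share the libraries, so no p is given. With the length trend removed, Ucp2, Slc25a51 and Slc25a45 had differences of 1.02, 0.77 and 0.59, and Slc25a10 and Slc25a4 of -0.56 and -2.56.

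Genes that work with the carriers were read from the same fit, in 6 lists of 48 genes, of which 45 had a row and 44 were tested. None of the 44 passed (limma, adjusted p under 0.05). The groups did not overlap in 11 higher and 6 lower, against 22.7% and 26.9% of all tested genes, and the median log2 difference of the 44 was 0.03. None of these counts is a result about the partner genes. Of the 5 genes of the mitochondrial pyruvate carrier and the outer membrane channels, Mpc1, a subunit of the pyruvate carrier, was at 11.4 and 7.86 FPKM in the vehicle libraries against 13.8 and 23.5 FPKM under UAB126 (limma adjusted p = 0.346), and the channel gene Vdac1 at 153 and 179.8 against 138.7 and 138.9 FPKM. Its partner Mpc2 was at 364 and 329 against 268 and 599 FPKM and overlapped.

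In the import machinery that inserts carriers into the inner membrane, 11 genes were tested and the groups did not overlap for 2, Timm8a1 (higher) and Timm22 (lower). Timm13 and Timm10b, small chaperones of the space between the membranes, had the smallest p of this list. Timm13 was at 72.4 and 122 against 56.7 and 74.4 FPKM and Timm10b at 35.2 and 60.1 against 21.7 and 42.7 FPKM, and both overlapped between groups. Timm22, the insertion pore, named after its values were seen, was at 9.90 and 12.2 against 9.31 and 9.40 FPKM. Among shuttle and citrate enzymes, Cs (citrate synthase) was at 66.1 and 67.1 FPKM in the vehicle libraries against 103 and 97.8 FPKM under UAB126, a difference of 0.59 ± 0.20 (limma adjusted p = 0.323). It was the only one of 6 whose groups did not overlap. Mdh1, the cytosolic malate dehydrogenase, was at 781 and 1176 against 595 and 794 FPKM. Got1, the cytosolic aspartate aminotransferase, was at 85.8 and 122 against 100.1 and 194 FPKM.

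Of the carnitine shuttle enzymes, Cpt1a and Crat were higher in both UAB126 libraries and Cpt2 overlapped, and none of the 3 tested passed. Cpt1a, which makes the acylcarnitines that Slc25a20 carries, was at 105.9 and 68.6 against 114 and 115 FPKM. Crat, carnitine acetyltransferase, was at 25.4 and 22.1 against 29.7 and 32.7 FPKM. Among 9 other inner membrane transporters tested, the serine carrier gene Sfxn1 had the smallest p of all 44 partner genes, with a difference of -1.30 ± 0.22 (limma adjusted p = 0.161). Sfxn1 has 2 rows, which were summed. The first was at 34.3 and 32.3 FPKM in the vehicle libraries against 36.6 and 41.6 FPKM under UAB126, and the second at 115 and 139 against 33.6 and 17.7 FPKM, so the difference lies in the second row. Mcu, the calcium uniporter, was at 10.04 and 9.43 against 13.1 and 13.3 FPKM, and Letm1 at 33.3 and 30.4 against 43.1 and 42.9 FPKM.

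Regulators of mitochondrial genes ranged widely in level. Ppara, the nuclear receptor of fatty acid oxidation, was the most abundant of the 10 tested, at 115.6 and 71.6 against 82.2 and 99.8 FPKM, and its groups overlapped. In both UAB126 libraries 3 of the 10 were higher (Ppargc1a, Ppargc1b and Pprc1), against 22.7% of all tested genes. Tfb1m, a factor of the mitochondrial ribosome, was lower in both, at 13.9 and 14.1 against 9.31 and 10.8 FPKM. Ppargc1a, a coactivator of mitochondrial biogenesis, was at 1.26 and 1.44 FPKM in the vehicle libraries against 2.01 and 2.46 FPKM under UAB126 (limma adjusted p = 0.410). Pprc1, of the same coactivator family, was at 1.81 and 2.18 against 3.84 and 3.48 FPKM (limma adjusted p = 0.302).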

How the data were processed

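The labels' protocols describe poly(A) selection of total liver RNA and paired-end reads. The submitters' processing notes list Cufflinks 2.2.1, Cuffdiff, STAR 2.5.1b and Trim Galore 0.4.1, and build mm10; the annotation and settings used upstream are not given. The authors deposited FPKM values, 1 column per library. The depth in fragments is unknown and no count test was run; relative depth was read from the commonest ratio between libraries among rows under 0.3 FPKM. Rows with no symbol (3634 of 27216) were left out, rows that share a symbol were summed, and the 595 rows with several names kept their joint name.

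log2(FPKM + 1) was fitted for the 10786 symbols that averaged 1 FPKM or more with limma 3.58.1 (R 4.3.3; intensity trend, group only, two-sided, 5.35 degrees of freedom, 3.35 of them from other genes). The fit was tested on simulated data with independent noise and changes larger than those of the members, so small differences were not covered. Gene positions and lengths are from GENCODE M21. Described in full were members whose groups did not overlap, the 6 most abundant, Ucp1, Ucp2, Ucp3, paralog pairs, and up to 3 genes of each partner list by smallest p. Slc25a23 has no row of its own, so its pair with Slc25a25 was not compared. Alternatives were a pseudocount of 0.1, a minimum of 5 FPKM or none, quantile normalization, removal of the length trend (loess), one prior spread, the highest row per symbol, doubtful zeros left out, a replicate block and each library left out. One member is in the counts and is not reported here. The members and lists were chosen with earlier results of these data known.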

Additional observations from a re-analysis of the deposited data

How the results depend on the processing

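The count of members past the threshold was 0 as reported and in the alternatives, with these exceptions: 1 (Slc25a4, limma adjusted p = 0.0408) with a replicate block, and 0 to 2 over the fits without 1 library, where the 2 were Slc25a4 and Slc25a30 without vehicle replicate 1. In those fits the lone library is assumed to vary like the other group. The replicate numbers are not said to pair animals (the correlation across genes of vehicle 1 minus 2 with UAB126 1 minus 2 was 0.18, with 2 pairs). Partner genes past the threshold stayed at 0 in the settings tried. Of all tested genes, 15 passed, against 27 with a pseudocount of 0.1, 0 with no filter (1764 at an unadjusted p under 0.05), 24 with quantile normalization, 148 with the replicate block and 8 to 469 without 1 library. The median difference of the members was 0.07, and from -0.03 (without vehicle replicate 2) to 0.22 (quantile normalization) over the alternatives; without Slc25a4, an alternative added after seeing the data, it was 0.07.

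Of 41 genes described that could be fitted, 29 kept the sign of their difference in the settings tried and 12 did not; none of the 21 values that changed sign passed in either setting, and the cause was not tested. With quantile normalization these were Slc25a5 (0.46) and Vdac1 (0.13), and with the length trend removed Slc25a5 (0.32), Slc25a12 (-0.052) and Slc25a37 (-0.073). Over the 4 fits without 1 library, the difference ran for Slc25a3 from -0.023 to 0.168, for Slc25a12 from -0.269 to 0.413, for Slc25a5 from -0.160 to 0.128, for Slc25a20 from -0.251 to 0.253, for Slc25a37 from -0.307 to 0.393, for Slc25a40 from -0.166 to 0.411, for Slc25a30 from -0.342 to 2.145, for Slc25a39 from -0.029 to 0.373, for Slc25a33 from -0.187 to 1.044, for Got1 from -0.032 to 0.912 and for Mpc2 from -0.368 to 0.790. Ucp2 ranged from 0.93 to 1.21 over the alternatives (limma adjusted p from 0.0565 to 0.743).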

Other observations

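Carrier genes that the table names only together with a neighbour were not counted as members, since the share of each gene in such a joint value is unknown. The joint value of Dennd1c and Slc25a23 was 369.7 and 462 FPKM in the vehicle libraries against 205 and 302 FPKM under UAB126, a log2 difference of -0.73 (limma adjusted p = 0.378). Slc25a23 is an ATP-Mg carrier. The joint value of Dgcr2 and Slc25a1, the citrate carrier, was 231 and 234 FPKM in the vehicle libraries against 174 and 210.2 FPKM under UAB126 (limma adjusted p = 0.583). The joint value of Muc6 and Slc25a22, a glutamate carrier, was 150.3 and 158 against 115 and 221 FPKM. The groups did not overlap for the first and second and overlapped for the third.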
